A study of Mus musculus with 19 samples.

Results

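The fatty acid elongases Elovl1, Elovl2, Elovl3, Elovl5 and Elovl6 and the fatty acid desaturases Fads1, Fads2, Scd1 and Scd2 were followed through mouse liver and liver tumours. The genes were chosen by name, as the 9 of 55421 genes in the count table that carry these symbols, and all 9 were found. RNA of 19 libraries from 15 male C57BL/6 mice was sequenced after poly(A) selection. In the mutants a transgene makes a paired form of c-Jun and Fra-2, 2 proteins of the AP-1 family encoded by Jun and Fosl2, and doxycycline keeps it off. The drug was withdrawn at weaning, at 3 weeks of age, from mutants and from control littermates alike. Livers were taken 2 months after withdrawal from 6 controls and 3 mutants, and 9 months after it from 3 controls and 3 mutants. Each mutant of the later time gave 1 piece without visible tumour, called tumour-free tissue here, and tumours were taken from the same animals, 2 from mutant 1 and 1 each from mutants 2 and 3. The promoter that drives the transgene and the alleles of the controls were not found in the labels used here. Each time point was its own sequencing run, so the time and the run of a library cannot be told apart.

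Fatty acids are built as palmitate and then reshaped in the membrane of the endoplasmic reticulum. Elongases of the Elovl family start each round that lengthens the chain: Elovl6 lengthens palmitate, Elovl1 and Elovl3 make very long saturated and monounsaturated chains, and Elovl5 and Elovl2 act on polyunsaturated chains, Elovl5 on the earlier and Elovl2 on the later ones. Stearoyl-CoA desaturases place the double bond of oleate and palmitoleate, and Scd1 is the main one of adult mouse liver while Scd2 is known from brain and from newborn liver. Fads2 and Fads1 are the front-end desaturases, Fads2 at the entry of the polyunsaturated pathway and Fads1 after the next elongation, on the way to arachidonate and eicosapentaenoate.

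Scd1 and Scd2 are close paralogues, and the reading of either rests on telling them apart. In build GRCm38 Scd2 lies on the plus strand at chr19:44293674-44306864 and Scd1 on the minus strand at chr19:44394455-44407879, with 87.6 kb between them. Their aligned coding sequences are identical at 962 of 1065 bases, or 90.3%, with a longest identical run of 147 bases. Of all stretches of 50 bases in the annotated transcripts, 4.56% of those of Scd1 and 3.97% of those of Scd2 also occur in another gene, so most of each transcript is its own. The least alike stretch of 90 coding bases is shown because it is where reads separate the paralogues best. It begins at base 75 of the Scd1 coding sequence and base 84 of that of Scd2, taken from GENCODE M21 transcripts, and the 30 bases that differ are in capitals.
Scd1: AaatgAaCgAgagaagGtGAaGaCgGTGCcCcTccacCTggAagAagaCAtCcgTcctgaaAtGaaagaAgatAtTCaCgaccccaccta
Scd2: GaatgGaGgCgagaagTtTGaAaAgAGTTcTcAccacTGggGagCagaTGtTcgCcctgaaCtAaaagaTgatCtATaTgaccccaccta

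The desaturases Fads2 (minus strand, chr19:10062765-10101746) and Fads1 (plus strand, chr19:10182888-10196877) share a cluster with Fads3 (plus strand, chr19:10041569-10060110), 2.7 kb from Fads2. Elovl3 (plus strand, chr19:46131897-46135694) overlaps Pitx3 on the opposite strand, and Elovl1 (plus strand, chr4:118428093-118432953) overlaps Cdc20 on the opposite strand. Pitx3 reached at most 0.233 CPM (counts scaled to the depth of each library with TMM factors) and Cdc20 at most 3.88 CPM in any library, against 42.8 CPM as the lowest level of Elovl1. The kit keeps strand, but the labels used here do not say whether the counting used it. Elovl2 is on the minus strand at chr13:41182381-41220405, Elovl5 on the plus strand at chr9:77917364-77984519 and Elovl6 on the plus strand at chr3:129532355-129638495, where 3.98% of the 50-base stretches of Elovl6 occur in other genes.

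Promoter windows of RefSeq (build GRCm38.p6, 250 bases before to 50 after the annotated start) matched 5 of the 9 genes: Elovl1, Elovl2, Elovl5, Elovl6 and Fads2. They were searched on both strands for the AP-1 site TGANTCA, the cyclic AMP response element TGACGTCA, the E-box CACGTG, the CCAAT box, the sterol element TCACNCCAC, the GC box GGGCGG and the nuclear receptor repeats DR1 and DR4. The bases before every annotated start are shown for Elovl2 and Elovl5, which were lower in mutants at 9 months, for Elovl1, whose change did not pass, and for Fads3, which was higher and is no member. This choice was made after the values were seen, because Scd1, Scd2, Elovl3 and Fads1 had no match and the matched window of Fads2 lies largely inside its annotated gene. Capitals mark matches on either strand.
Elovl2, chr13:41220406-41220653, minus strand: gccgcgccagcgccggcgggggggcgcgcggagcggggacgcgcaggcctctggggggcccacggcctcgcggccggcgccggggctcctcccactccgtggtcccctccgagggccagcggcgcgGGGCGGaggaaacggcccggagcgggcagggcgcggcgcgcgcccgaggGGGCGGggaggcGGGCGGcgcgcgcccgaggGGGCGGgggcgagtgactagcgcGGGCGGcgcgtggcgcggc
Elovl5, chr9:77917115-77917363, plus strand: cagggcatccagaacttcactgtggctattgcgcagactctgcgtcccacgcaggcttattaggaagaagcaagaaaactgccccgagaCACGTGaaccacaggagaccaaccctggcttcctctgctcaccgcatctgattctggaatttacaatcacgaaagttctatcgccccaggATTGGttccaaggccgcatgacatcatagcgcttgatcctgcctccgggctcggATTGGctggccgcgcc
Elovl1, chr4:118427843-118428092, plus strand: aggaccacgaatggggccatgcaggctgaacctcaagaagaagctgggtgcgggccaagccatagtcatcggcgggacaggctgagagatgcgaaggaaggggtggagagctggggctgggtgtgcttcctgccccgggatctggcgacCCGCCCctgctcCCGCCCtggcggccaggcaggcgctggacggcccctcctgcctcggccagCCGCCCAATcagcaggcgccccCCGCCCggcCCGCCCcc
Fads3, chr19:10041298-10041547, plus strand: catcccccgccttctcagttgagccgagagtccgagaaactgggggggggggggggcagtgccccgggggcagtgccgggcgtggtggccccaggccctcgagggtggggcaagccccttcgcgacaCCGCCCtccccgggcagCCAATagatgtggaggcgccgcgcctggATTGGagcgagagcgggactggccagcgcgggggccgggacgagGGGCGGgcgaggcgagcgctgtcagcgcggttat

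The windows shown for Elovl2 and Elovl1 each held 5 GC boxes, and that of Elovl1 also a CCAAT box that overlaps a GC box. Elovl5 held 1 E-box and 2 CCAAT boxes, and a cyclic AMP response element in the bases after the start, which are not shown. Fads3 held 2 CCAAT boxes and 2 GC boxes, and Fads2 held 1 GC box. The further annotated start of Elovl1 had 2 GC boxes, and that of Elovl2 and the window of Elovl6 had no match. Over all 32851 windows of this length, 35.7% held a GC box, 37.4% a CCAAT box, 7.15% the E-box, 1.79% the cyclic AMP response element and 1.24% the sterol element. The letters of the AP-1 site, which 7.81% of all windows held, were in none of the windows searched for the 5 matched members or for Fads3, and neither were DR1 and DR4, which 0.0396% and 0.0152% of windows held.

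The libraries held 14294611 to 22062341 counts each. Fosl2 was at 647 to 877 CPM in the 2-month mutants, 783 to 940 CPM in tumour-free tissue and 410 to 766 CPM in tumours, against 8.35 to 19.7 CPM in the 9 controls. Jun was at 338 to 788 CPM in mutant libraries and 10.5 to 39.6 CPM in controls other than control 1 of 9 months, which had 384 CPM, and Myc ranged from 3.31 to 18.9 CPM in controls and from 5.61 to 49.8 CPM in mutant libraries. Library 1 of each 9-month group also carried the highest summed level of 12 immediate early genes, for example 2933 CPM in control 1 against 140 and 61.8 CPM in controls 2 and 3. All 10 hepatocyte markers were detected in every group, with a summed level of 126083 to 151342 CPM in 2-month controls, 50654 to 68887 CPM in 2-month mutants, 123061 to 140770 CPM in 9-month controls, 49280 to 52635 CPM in tumour-free tissue and 53183 to 77733 CPM in tumours. These sums are carried by a few abundant genes. Of the 10 hepatocyte markers 5 fell at 2 months and 4 in each tissue of 9 months, while Apob rose at 2 months (log2 1.11 ± 0.112) and the others did not pass. Macrophage markers summed to 201 to 529 CPM over all controls and 438 to 1087 CPM over mutant libraries. At 2 months Gpnmb, Cd68, Trem2 and Lyz2 of that list rose (log2 8.4 ± 0.455, 2.69 ± 0.206, 1.78 ± 0.46 and 0.79 ± 0.287). Its other markers, Clec4f, Vsig4, Timd4, Adgre1, Csf1r and Marco, did not pass there. The part of these shifts in the results below was not tested, and in bulk tissue fewer cells of a type and less RNA per cell cannot be told apart.

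In control liver Scd1 stood far above the other genes. Per kb of exon its level was 2114 ± 416 CPM (SD, n = 6) at 2 months, or 0.905% ± 0.168 of all counts. Fads2 (219 ± 27.3 CPM per kb), Elovl5 (203 ± 43.5), Elovl3 (193 ± 120), Elovl2 (158 ± 15.1) and Fads1 (140 ± 27.3) followed, and neighbours in that order differed by less than their spread. Elovl1 (18.2 ± 2.06) and Elovl6 (17.1 ± 5.01) lay well below these and within their spread of each other. Scd2 was last at 1.27 ± 0.160 CPM per kb. In 2-month mutants the low end of the order differed: Scd2 was the sixth at 25.6 ± 5.43 CPM per kb and Elovl3 the last at 0.188 ± 0.0207 CPM per kb (SD, n = 3).

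**Figure D1:**
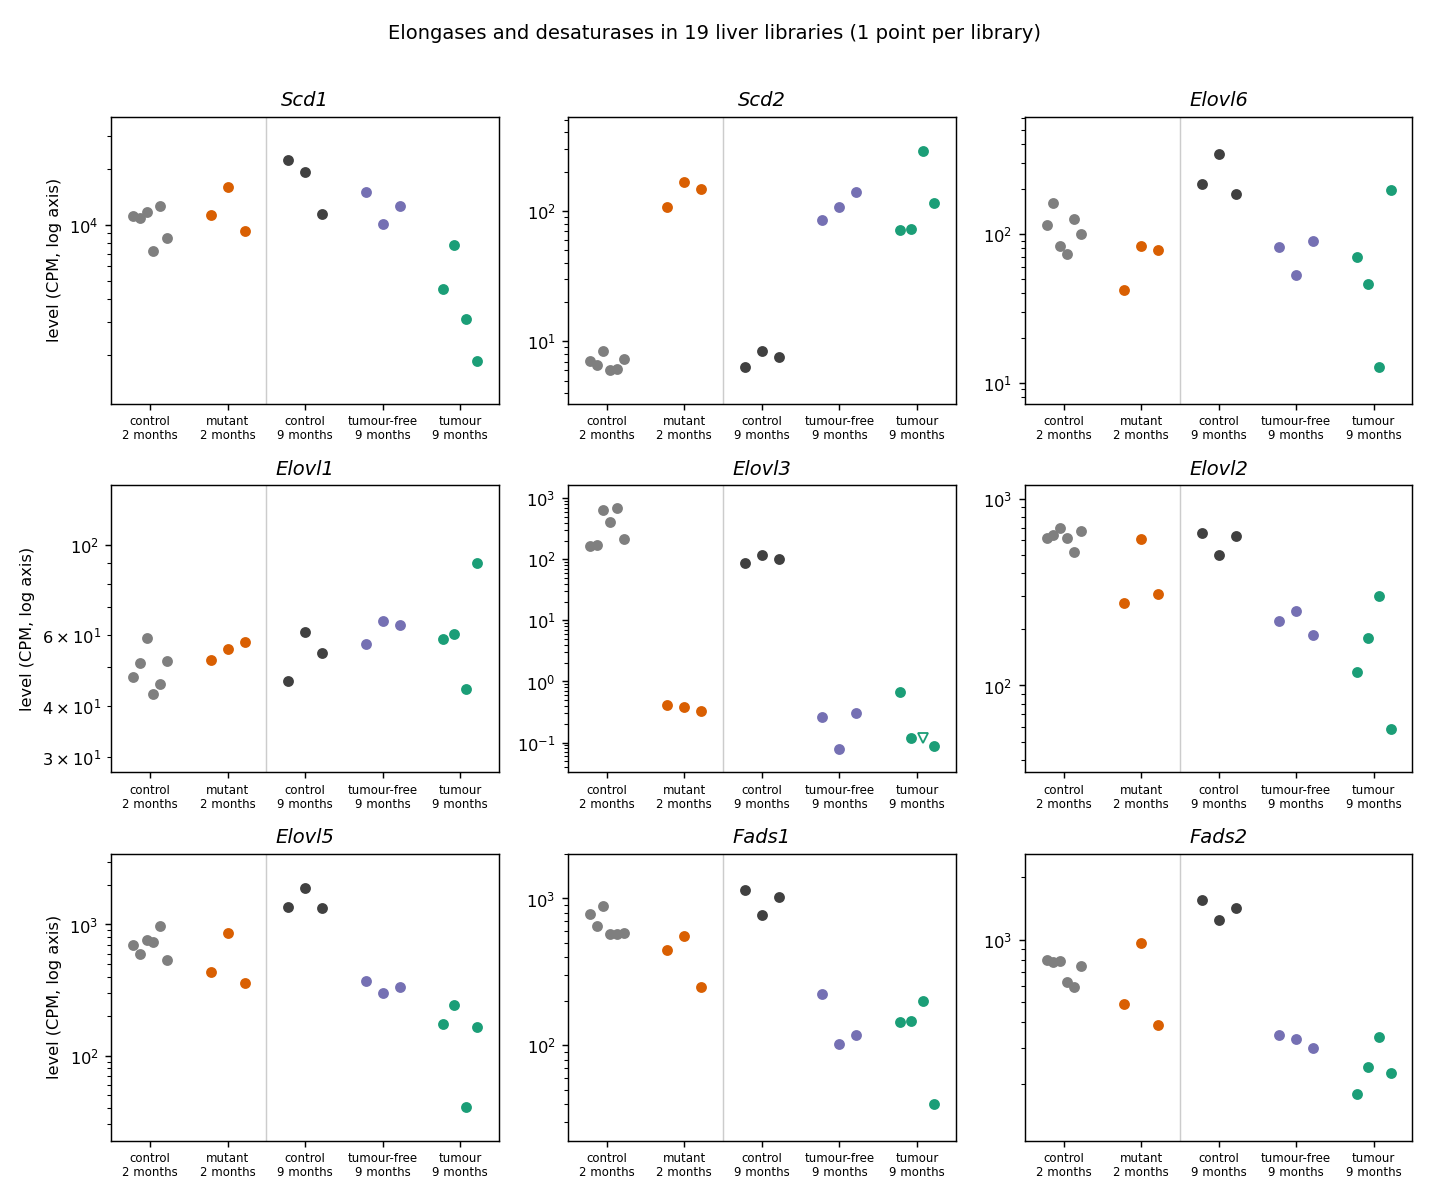
Level of each gene in CPM on a log axis, 1 point for each of the 19 libraries, by group; the open triangle in the Elovl3 panel marks a tumour with no count, drawn at the level of 3 counts. Elovl3 is under 1 CPM in all mutant libraries and Scd2 is at 71.9 CPM or more in them, while Elovl1 overlaps between all groups.

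Against controls Elovl3 fell to a few counts and Scd2 rose at both times. The polyunsaturated enzymes Elovl2, Elovl5, Fads1 and Fads2 fell in both tissues of 9 months, and of these Elovl2 and Fads1 also passed at 2 months. Elovl6 fell in tumour-free tissue and Scd1 in tumours. In 2-month mutants 1 of the 9 members rose and 3 fell at an adjusted p under 0.05, where 42.7% of all 13773 genes tested passed (22.3% higher and 20.4% lower). In tumour-free tissue 1 rose and 6 fell, where 34.9% of genes passed (18.1% higher and 16.8% lower). In tumours against 9-month controls 1 rose and 6 fell, where 25.1% passed (13.8% higher and 11.3% lower). The median log2 change of the 9 members was -0.37, -1.76 and -2.31 in these comparisons, against 0.01, -0.01 and 0.01 over all genes tested. At 2 months 4 of 9 is near the background, and at 9 months the lower calls exceed it. Both 9-month comparisons share their 3 controls, so they are not separate evidence. Scaled by library size alone, 77.7%, 82.9% and 85.1% of the called genes were higher, against 52.1%, 51.9% and 54.9% as given above.

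**Figure D2:**
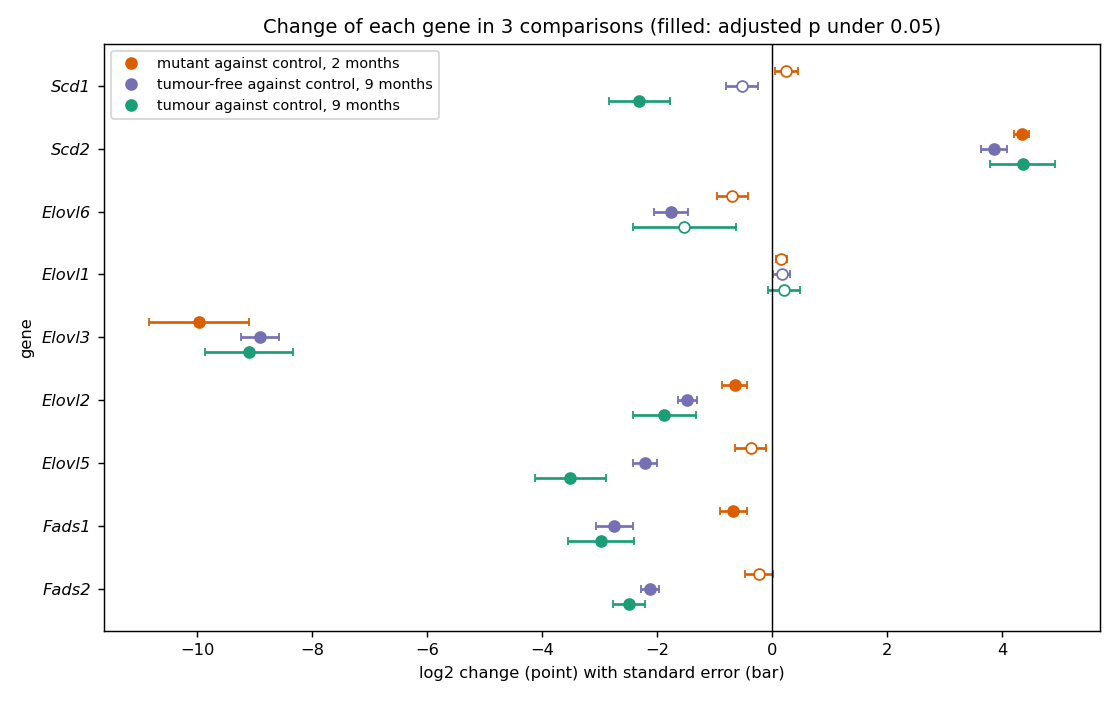
Log2 change (points) with its standard error (bars) of each gene in 2-month mutants, tumour-free tissue and tumours, each against the controls of its time; filled points passed an adjusted p under 0.05. Elovl3 lies near -9 to -10 and Scd2 near 4 in every comparison, and Elovl5, Fads1 and Fads2 lie further below 0 at 9 months than at 2 months.

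Scd2, the desaturase scarce in adult liver, rose in every comparison with controls. It was at 6.06, 6.86 and 8.43 CPM (lowest, median and highest) in 2-month controls and at 108, 166 and 146 CPM in 2-month mutants 1 to 3. At 9 months it was at 6.37, 8.43 and 7.54 CPM in controls, at 84.7, 107 and 139 CPM in tumour-free tissue, at 71.9 and 72.9 CPM in the tumours of mutant 1, and at 289 and 116 CPM in those of mutants 2 and 3. No control library reached any mutant library, and the tumour of mutant 2 was the highest of all 19. The log2 change was 4.34 ± 0.135 (SE) at 2 months (edgeR adjusted p = 3.21e-09), 3.86 ± 0.232 in tumour-free tissue (adjusted p = 1.90e-05) and 4.36 ± 0.564 in tumours (adjusted p = 0.00363). By group means this was 20.2-fold, 14.8-fold and 21.3-fold. The call held in all 15, 13 and 14 alternatives run for these comparisons.

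Scd1, the main stearoyl-CoA desaturase of adult liver, fell in tumours. It was at 7272, 11057 and 12565 CPM (lowest, median and highest) in 2-month controls and 11301, 16019 and 9273 CPM in 2-month mutants. The groups overlapped, and the change did not pass (log2 0.25 ± 0.203, adjusted p = 0.349). At 9 months the controls had 22416, 19278 and 11419 CPM and tumour-free tissue 15035, 10141 and 12601 CPM, again overlapping (-0.52 ± 0.275, adjusted p = 0.184). Tumours had 4511 and 7784 CPM in mutant 1, 3110 CPM in mutant 2 and 1853 CPM in mutant 3, all below every control and every tumour-free sample. The log2 change of tumours against controls was -2.31 ± 0.527 (adjusted p = 0.0199), or 4.75-fold lower by means. The call ended without control 1 (adjusted p = 0.0709) or control 2 (adjusted p = 0.0648), with log2 changes of -2.12 and -2.24.

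The share of Scd2 in the pair was higher in every mutant library than in every control. Per kb of exon, Scd2 made up 0.0619% ± 0.0127 (SD, n = 6) of the sum of Scd1 and Scd2 in 2-month controls and 1.05% ± 0.294 (n = 3) in 2-month mutants. At 9 months its share was 0.0412% ± 0.0169 in controls, 0.804% ± 0.262 in tumour-free tissue and 4.68% ± 3.37 in tumours. The tumours spread widely: 1.41% and 0.832% in the tumours of mutant 1, 7.67% in that of mutant 2 and 5.33% in that of mutant 3. Scd1 stayed the larger in every library, and its share of all counts was 1.54% ± 0.478 in 9-month controls and 0.435% ± 0.273 in tumours. Myelinating nerve and adipose tissue are known for Scd2 and Scd1 as well. The 7 Schwann cell and nerve markers summed to 13.3 to 17.3 CPM in 2-month controls, 44.3 to 62.3 CPM in 2-month mutants, 12.1 to 19.3 CPM in 9-month controls, 54.2 to 76.4 CPM in tumour-free tissue and 34.1 to 99.2 CPM in tumours, and their part in the Scd2 levels was not tested. The 7 adipocyte markers summed to 18.7 to 33.9 CPM in 2-month controls and 77.5 to 355 CPM in 2-month mutants, of which Cidec, a lipid droplet gene, made up 76.3, 354 and 200 CPM in mutants 1 to 3. Adipoq, Plin1, Lep and Retn had no count in any 2-month mutant, and Adrb3 was lower there (log2 -4.05 ± 0.259). At 9 months the adipocyte sums overlapped, at 60.4 to 154 CPM in controls, 143 to 178 CPM in tumour-free tissue and 75.0 to 194 CPM in tumours.

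**Figure D3:**
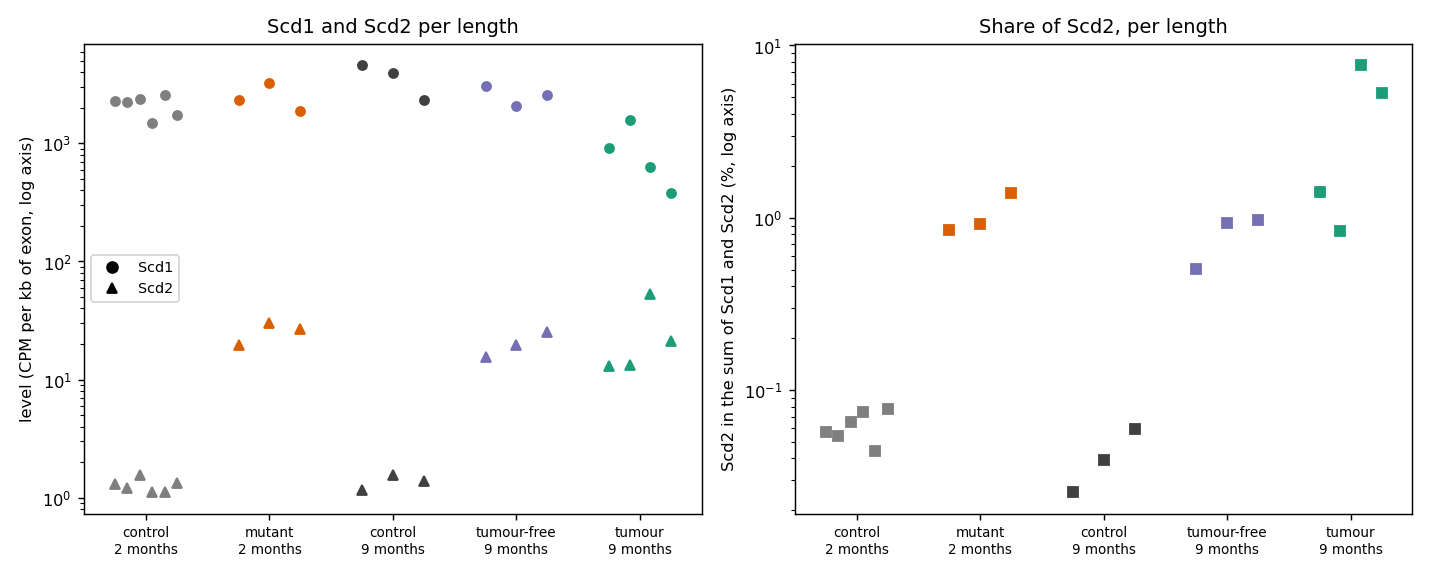
Left, levels of Scd1 (circles) and Scd2 (triangles) per kb of exon in each library on a log axis; right, the percent of Scd2 in their sum on a log axis. The share is under 0.1% in all 9 controls, 0.502% to 1.39% in the 2-month mutants and tumour-free tissue, and highest at 7.67% in the tumour of mutant 2.

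Elovl6, which turns palmitate into stearate, fell in tumour-free tissue. At 2 months controls had 73.3, 107 and 162 CPM (lowest, median and highest) and mutants 42.2, 83.0 and 78.2 CPM, with mutants 2 and 3 inside the control range (log2 -0.69 ± 0.275, adjusted p = 0.0666). It passed by DESeq2 (adjusted p = 0.0254) and without control 4 (-0.78, adjusted p = 0.0388). At 9 months the controls had 217, 344 and 185 CPM and tumour-free tissue 81.5, 52.5 and 90.0 CPM, with no overlap (-1.76 ± 0.297, adjusted p = 0.00254). Tumours had 70.3 and 46.2 CPM in mutant 1, 12.8 CPM in mutant 2 and 197 CPM in mutant 3. The last lay inside the control range, and the comparison did not pass (-1.53 ± 0.895, adjusted p = 0.254). Without the tumour of mutant 3 it passed (-2.85, adjusted p = 0.0443).

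Elovl3, an elongase of very long chains that is known in mouse liver for higher levels in males and for daily variation, was nearly absent from mutants. In 2-month controls 1 to 6 it was at 167, 174, 647, 401, 685 and 211 CPM. The 2-month mutants had 0.409, 0.376 and 0.327 CPM, from 7, 6 and 7 counts. In 9-month controls it was at 88.4, 117 and 101 CPM, in tumour-free tissue at 0.264, 0.0777 and 0.307 CPM, and in tumours at 0.661 and 0.120 CPM in mutant 1, with no count in the tumour of mutant 2 and 0.0883 CPM in that of mutant 3. The no-count tumour allows a level of up to 0.117 CPM, for counting error only. Every mutant library lay more than an order of magnitude below every control. The log2 changes were -9.97 ± 0.868 at 2 months (adjusted p = 1.36e-05), -8.90 ± 0.328 in tumour-free tissue (adjusted p = 2.81e-06) and -9.10 ± 0.768 in tumours (adjusted p = 0.0011), and every alternative run kept each call.

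The 2-month controls themselves spread most in Elovl3. At 2 months its coefficient of variation was 62.2%, against 9.58% for Elovl2 and 29.3% for Elovl6, the next highest of the members. Controls 3 and 5, with the highest Elovl3, were also lowest in the clock output gene Dbp (18.7 and 8.53 CPM, against 88.4 to 221 CPM in the other controls) and highest in the clock gene Arntl (45.2 and 24.4 CPM, against 4.43 to 9.13 CPM). Control 4, next highest in Elovl3 at 401 CPM, had 196 CPM of Dbp and 8.47 CPM of Arntl, inside the ranges of controls 1, 2 and 6. The part of collection time in the Elovl3 spread was not tested. In 9-month controls the coefficient of variation of Elovl3 was 14.0%, against 33.8% for Elovl6 and 14.4% for Elovl2. Of 14 male-biased liver genes (Elovl3 not among them), 7 were lower and 3 higher in 2-month mutants. Hsd3b5 and Slco1a1 of that list, named like Dbp and Arntl after their values were seen, were at 127 to 415 and 478 to 671 CPM in 2-month controls and at most 0.421 and 1.03 CPM in 2-month mutants.

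Elovl1, the elongase of very long saturated chains found in most tissues, gave no call. Its levels were 42.8, 49.2 and 58.7 CPM (lowest, median and highest) in 2-month controls, 51.9 to 57.6 CPM in 2-month mutants, 46.2 to 60.9 CPM in 9-month controls, 56.8 to 64.8 CPM in tumour-free tissue and 44.0 to 89.9 CPM in tumours. All groups overlapped. The log2 changes against controls were 0.16 ± 0.095, 0.17 ± 0.148 and 0.21 ± 0.28 (adjusted p = 0.201, 0.402 and 0.617). Scaled by library size alone, which moves the median of all genes to 0.286 at 2 months, 0.425 in tumour-free tissue and 0.475 in tumours, Elovl1 passed at 2 months (0.44, adjusted p = 0.00342) and in tumour-free tissue (0.61, adjusted p = 0.0166).

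Elovl5 and Fads2, which act early in the polyunsaturated pathway, fell at 9 months. Elovl5 was at 1350, 1899 and 1333 CPM in 9-month controls and 373, 301 and 333 CPM in tumour-free tissue. Tumours had 175 and 244 CPM in mutant 1, 40.8 CPM in mutant 2 and 166 CPM in mutant 3, so that controls, tumour-free tissue and tumours did not overlap. The log2 change was -2.21 ± 0.206 in tumour-free tissue (adjusted p = 1.30e-04) and -3.51 ± 0.614 in tumours (adjusted p = 0.00849). Fads2 was at 1553, 1239 and 1423 CPM in controls, 348, 330 and 300 CPM in tumour-free tissue, 179 and 242 CPM in the tumours of mutant 1, and 339 and 227 CPM in those of mutants 2 and 3. Tumours and tumour-free tissue overlapped, and both lay below every control. Its log2 change was -2.13 ± 0.156 (adjusted p = 4.27e-05) and -2.49 ± 0.283 (adjusted p = 0.00193). Every alternative run kept these calls of Elovl5 and Fads2.

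Fads1 and Elovl2, which act later in that pathway, fell as well. Fads1 was at 1134, 771 and 1029 CPM in 9-month controls, 225, 103 and 118 CPM in tumour-free tissue, 144 and 147 CPM in the tumours of mutant 1, 202 CPM in that of mutant 2 and 39.9 CPM in that of mutant 3. Every mutant library lay below every control. The log2 change was -2.74 ± 0.321 in tumour-free tissue (adjusted p = 4.03e-04) and -2.98 ± 0.576 in tumours (adjusted p = 0.0122), the latter lost without all 9-month libraries numbered 1 (-2.96, adjusted p = 0.0835). Elovl2 was at 655, 497 and 633 CPM in controls, 221, 249 and 186 CPM in tumour-free tissue, 118 and 179 CPM in the tumours of mutant 1, 300 CPM in that of mutant 2 and 58.4 CPM in that of mutant 3, again without overlap with controls. Its log2 change was -1.47 ± 0.173 in tumour-free tissue (adjusted p = 4.20e-04) and -1.87 ± 0.549 in tumours (adjusted p = 0.0476). The tumour call of Elovl2 held in 6 of 14 alternatives and ended without any 1 of the 3 controls (adjusted p from 0.099 to 0.126) and without the tumours of mutant 1 (adjusted p = 0.117).

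At 2 months 2 of these 4 enzymes fell, Fads1 and Elovl2, and mutant 2 stood apart. Fads1 was at 449, 559 and 249 CPM in mutants and 572, 613 and 887 CPM (lowest, median and highest) in controls, without overlap (log2 -0.67 ± 0.239, adjusted p = 0.0424). Elovl2 was at 278, 605 and 307 CPM in mutants and 520, 630 and 693 CPM in controls (-0.65 ± 0.222, adjusted p = 0.0355), Elovl5 at 433, 858 and 355 CPM against 531, 712 and 974 CPM (-0.37 ± 0.271, adjusted p = 0.298), and Fads2 at 490, 961 and 386 CPM against 592, 761 and 801 CPM (-0.23 ± 0.246, adjusted p = 0.486, with 0.03 under library size alone). Mutant 2 was the highest mutant for all of them and for Scd1 and Elovl6. Without it Elovl5 (-0.85, adjusted p = 0.0119) and Fads2 (-0.71, adjusted p = 0.00746) passed. Without mutant 3 Fads2 was at 0.02. The Elovl2 call ended without mutant 1 or 3 or control 1, 2, 3, 4 or 6 (adjusted p from 0.0527 to 0.155), and that of Fads1 without mutant 1 or 3 or control 1, 2 or 3 (adjusted p from 0.0608 to 0.128).

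Of the 9 members, 3 had groups that did not overlap at 2 months, where 38.6% of all genes tested did not. At 9 months 7 of 9 did not overlap between tumour-free tissue and controls (49% of genes) and 7 of 9 between tumours and controls (46.1% of genes).

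Between tumours and the tumour-free tissue of the same animals no member passed. Of the 8 members tested (Elovl3 was too low to be tested), 0 passed by edgeR, where 0.0137% of all 14566 genes did, or 2 genes. At an unadjusted p under 0.05, 1454 genes passed, and of the members Scd1 alone. Scd1 was 3.38-fold lower in tumours by means (log2 -1.78 ± 0.481, edgeR adjusted p = 0.309) and lower in the tumour than in the tumour-free tissue of all 3 animals. DESeq2 called 442 genes and of the members Scd1 (adjusted p = 0.00457), and 1 fit over all 5 groups also called Scd1 (adjusted p = 0.0224). Elovl5 was lower in tumours in all 3 animals too (-1.29 ± 0.556, adjusted p = 0.518). Groups did not overlap for these 2 of 8 members, where 15.6% of all genes did not overlap. With the animal as a block no member passed.

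The tumours differed from each other. The tumour of mutant 3 had the lowest Scd1 (1853 CPM), Fads1 (39.9 CPM) and Elovl2 (58.4 CPM) of all libraries and the highest Elovl6 (197 CPM) and Elovl1 (89.9 CPM) of the tumours. The tumour of mutant 2 had the reverse in part, with the lowest Elovl5 (40.8 CPM), Elovl6 (12.8 CPM) and Elovl1 (44.0 CPM) of the tumours and the highest Scd2, Elovl2, Fads1 and Fads2. The tumours of mutant 1 had bile duct markers at 2451 and 3145 CPM in sum, against 477 and 128 CPM in those of mutants 2 and 3 and 78.0 to 141 CPM in 9-month controls, and their part in the levels above was not tested. Between the 2 tumours of mutant 1 the members other than Elovl3 differed by less than 2-fold.

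Among controls, 4 members were higher at 9 than at 2 months and none was lower, where 11.9% of genes passed (7.29% higher and 4.64% lower). Elovl5 rose from 714 ± 153 (SD, n = 6) to 1527 ± 322 CPM (n = 3; log2 1.10 ± 0.18, adjusted p = 0.00299). Fads2 rose from 722 ± 90.1 to 1405 ± 158 CPM (0.96 ± 0.124, adjusted p = 6.76e-04), Elovl6 from 110 ± 32.2 to 249 ± 84.2 CPM (1.19 ± 0.253, adjusted p = 0.0145) and Scd1 from 10341 ± 2037 to 17704 ± 5665 CPM (0.78 ± 0.212, adjusted p = 0.0355). The groups did not overlap for Elovl5, Fads2, Elovl6 and Elovl3, and they overlapped for Scd1. Elovl3 went from 381 ± 237 to 102 ± 14.3 CPM and Fads1 from 674 ± 131 to 978 ± 187 CPM without passing (-1.89 ± 0.549, adjusted p = 0.0579, and 0.54 ± 0.165, adjusted p = 0.0538). The Scd1 call ended without control 1, 2, 4 or 6 of 2 months or control 1 or 2 of 9 months (adjusted p from 0.0516 to 0.139) and that of Elovl6 without control 2 of 9 months (0.87, adjusted p = 0.0792). Elovl3 passed without control 1 or 2 of 2 months (adjusted p = 0.0391 and 0.0416), and Fads1 without control 3 of 2 months or control 2 of 9 months (adjusted p = 0.0247 and 0.0406). Beside this, 7 of 9 tested female-biased genes were higher and 7 of 14 male-biased genes lower in the later controls, which the labels give as male. Cyp4a12a, with the smallest adjusted p of the male-biased list, went the other way and was higher (log2 1.62 ± 0.185, edgeR adjusted p = 2.91e-04). The clock genes Clock and Arntl were lower in the later controls (log2 -1.21 ± 0.126, edgeR adjusted p = 1.53e-04, and -3.57 ± 0.954, edgeR adjusted p = 0.0461). The other clock genes tested did not pass. In these controls Dbp was at 218 to 308 CPM and Arntl at 0.918 to 1.84 CPM. The part of collection time in the Elovl3 difference was not tested. Age, run and these shifts cannot be told apart here.

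Since controls differed between times, the change of the mutant effect with time was tested as an interaction, in which a run that shifts all libraries of its time alike cancels. In tumour-free tissue 3 members had a lower effect at 9 than at 2 months and none a higher one, where 1.52% of genes passed (0.462% higher and 1.05% lower). The difference of log2 changes was -1.83 ± 0.37 for Elovl5 (adjusted p = 0.0195), -2.06 ± 0.404 for Fads1 (adjusted p = 0.018) and -1.89 ± 0.323 for Fads2 (adjusted p = 0.00709). For tumours 4 members had a lower effect, where 2.62% of genes passed (0.891% higher and 1.73% lower). They were Elovl5 (-3.11 ± 0.608, adjusted p = 0.0177), Fads1 (-2.27 ± 0.565, adjusted p = 0.0475), Fads2 (-2.23 ± 0.37, adjusted p = 0.00992) and Scd1 (-2.52 ± 0.503, adjusted p = 0.0182). Scd1 gave no call in tumour-free tissue (-0.76 ± 0.352, adjusted p = 0.386). The comparison for tumours differs in tissue as well as in time, and these cannot be told apart in it. Elovl3 and Scd2, already far from controls at 2 months, gave no call (Elovl3 1.10 ± 1.27 and 0.96 ± 1.18, Scd2 -0.47 ± 0.254 and 0.05 ± 0.483).

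The mutants alone were not tested between times. From 2-month mutants to tumour-free tissue the mean of Elovl5 went from 548 to 336 CPM, of Fads2 from 613 to 326 CPM and of Fads1 from 419 to 149 CPM, while the mean of Scd1 went from 12197 to 12593 CPM and that of Elovl6 from 67.8 to 74.7 CPM. In tumour-free tissue the Elovl5 call ended without mutant 2 of 2 months, control 2 of 9 months or tumour-free sample 2 or 3 (adjusted p from 0.0528 to 0.076), and that of Fads1 without mutant 1 or 2 or tumour-free sample 2 or 3 (adjusted p from 0.0501 to 0.0737). For tumours, Elovl5 and Scd1 ended without mutant 2 (adjusted p = 0.0561 and 0.0619), and Fads1 ended without mutant 1 or 2 or any 1 of the 9 controls (adjusted p from 0.0542 to 0.155). Elovl2 passed for tumours without the tumour of mutant 2 (-1.85, adjusted p = 0.0453).

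The enzymes that complete each elongation round, listed together with the elongase Elovl7, did not move as one group. Of these 7 tested genes, 2 rose and 3 fell at 2 months, 2 rose and 3 fell in tumour-free tissue, and 2 rose and 1 fell in tumours, and Elovl7 was among those that rose in each. The lists of other genes described here and below are read against the share of all genes called, which was 22.3%, 18.1% and 13.8% higher and 20.4%, 16.8% and 11.3% lower in the same order. The dehydratase Hacd1 fell in each (log2 -1.06 ± 0.229, -1.03 ± 0.234 and -1.21 ± 0.365), although the tumour call held in 5 of 14 alternatives (adjusted p = 0.049). The dehydratase Hacd2 rose at 2 months (0.61 ± 0.088) and Hacd3 fell (-0.33 ± 0.0929, adjusted p = 0.0151, and up to 0.572 over its 15 alternatives). Hsd17b12, the ketoacyl reductase of the round, fell in tumour-free tissue (-0.59 ± 0.137, adjusted p = 0.0112), and Hacd4 rose there (0.82 ± 0.233, adjusted p = 0.027) and in tumours (1.12 ± 0.316, adjusted p = 0.0397), in 6 of 13 and 6 of 14 alternatives. Elovl7 rose from 0.533 ± 0.271 to 1.55 ± 1.02 CPM at 2 months and from 0.543 ± 0.112 CPM to 2.35 ± 1.66 CPM in tumour-free tissue, and it was at 4.41 ± 2.92 CPM in tumours (2.95 ± 0.553, adjusted p = 0.0101). Its first changes were 1.55 ± 0.466 (adjusted p = 0.0199) and 2.08 ± 0.649 (adjusted p = 0.0384), at levels near 1 CPM, and were singled out after their values were seen.

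Fads3, the neighbour of Fads2, moved opposite to Fads1 and Fads2 at 9 months and is described because it shares their cluster. At 2 months Fads3 also rose, while the change of Fads2 did not pass (log2 -0.23 ± 0.246). Fads3 was at 2.74, 3.59 and 4.50 CPM (lowest, median and highest) in 2-month controls and 12.7, 15.5 and 27.6 CPM in mutants. At 9 months controls had 3.38, 3.49 and 4.02 CPM, tumour-free tissue 27.7, 31.6 and 31.5 CPM, and tumours 24.0 and 47.4 CPM in mutant 1, 93.1 CPM in mutant 2 and 12.0 CPM in mutant 3. No mutant library reached down to any control. The log2 changes were 2.38 ± 0.233 (adjusted p = 1.28e-05), 3.03 ± 0.153 (adjusted p = 7.85e-06) and 3.64 ± 0.741 (adjusted p = 0.0172), the last kept in 9 of 14 alternatives. Of the 7 tested genes of other desaturases and their electron donors, Degs1, the dihydroceramide desaturase, also rose (0.74 ± 0.133 at 2 months and 1.09 ± 0.231 in tumours) and the cytochrome Cyb5b fell (-0.70 ± 0.132, -1.15 ± 0.185 and -1.46 ± 0.348), as did Cyb5a in tumour-free tissue (-0.88 ± 0.164). In all, 2 rose and 1 fell at 2 months, 2 rose and 2 fell in tumour-free tissue, and 2 rose and 1 fell in tumours. Scd3 and Scd4 were at most 0.803 and 0.438 CPM in any library and Elovl4 at most 0.130 CPM.

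**Figure D4:**
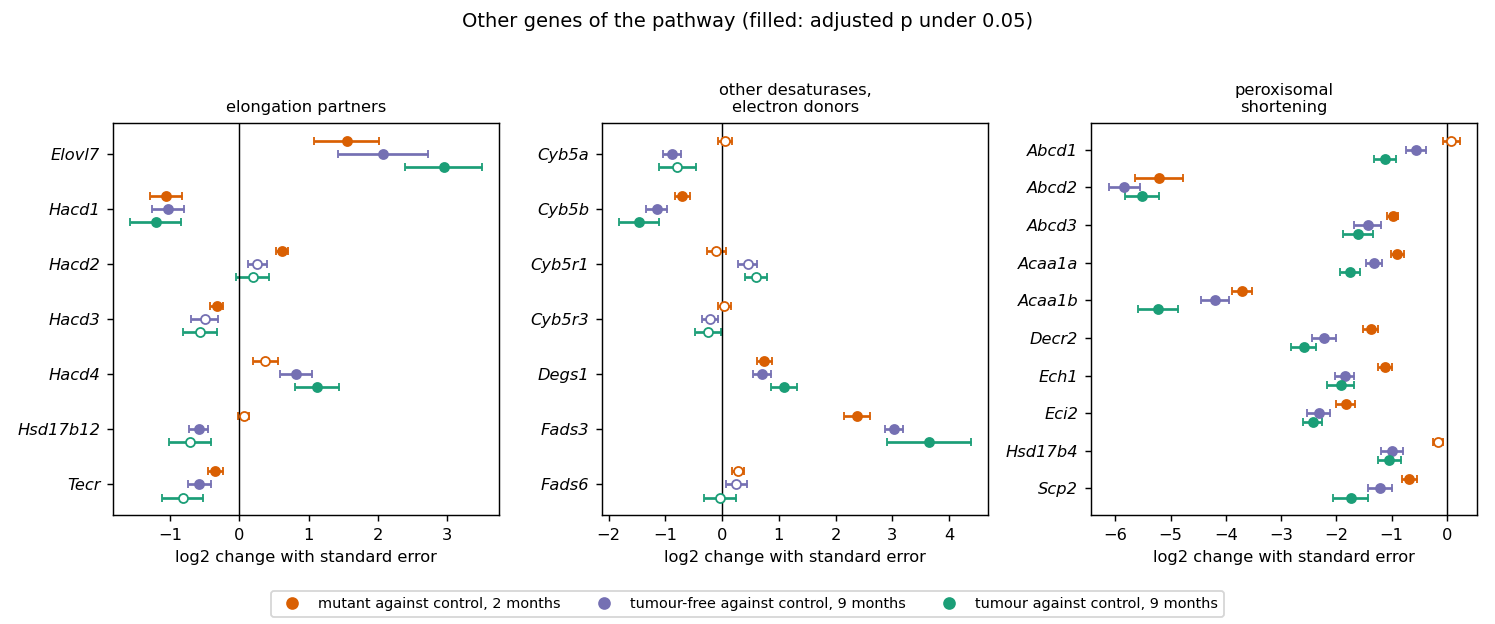
Log2 change (points) with standard error (bars) against the controls of each time for elongation partners, other desaturases and their electron donors, and peroxisomal chain-shortening genes; filled points passed an adjusted p under 0.05. Fads3 and Elovl7 lie above 0 and the peroxisomal genes mostly below it, to -5.84 for Abcd2 in tumour-free tissue.

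The peroxisomal genes that shorten polyunsaturated chains after elongation fell widely. Of 10 tested, 8 fell at 2 months, 10 in tumour-free tissue and 10 in tumours, and none rose; their median log2 change was -1.05, -1.64 and -1.84, against 0.01, -0.01 and 0.01 over all genes. Abcd2, a peroxisomal importer of fatty acyl chains, changed by -5.21 ± 0.427, -5.84 ± 0.282 and -5.52 ± 0.31, and the thiolase Acaa1b by -3.71 ± 0.185, -4.19 ± 0.25 and -5.23 ± 0.359. The isomerase Eci2 changed by -1.83 ± 0.172, -2.32 ± 0.211 and -2.43 ± 0.174. Between times, 1 of 10 had a lower effect in tumour-free tissue at 9 months and 5 of 10 in tumours. Hsd17b4, the bifunctional enzyme of the middle steps, was called in both (-0.82 ± 0.192, adjusted p = 0.0424, and -0.86 ± 0.169, adjusted p = 0.0177). Its calls held in 4 of 22 and 18 of 23 alternatives. In controls 6 of 10 were higher at 9 months, Acaa1b by 1.48 ± 0.179.

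Of 9 genes of palmitate supply other than Elovl6 and Scd1, 2 fell at 2 months, near the share of all genes (20.4%). In tumour-free tissue 6 fell (16.8% of all genes) and in tumours 3 (11.3%), and none rose in any of them, with median log2 changes of -0.34, -0.97 and -1.10. Me1, the malic enzyme that makes NADPH, changed by -2.61 ± 0.233, -3.89 ± 0.196 and -2.01 ± 0.435, and Thrsp, a lipogenic cofactor, by -3.80 ± 0.375 in tumour-free tissue and -4.66 ± 0.869 in tumours (adjusted p = 0.012). The citrate carrier Slc25a1 changed by -0.76 ± 0.125 at 2 months and -0.99 ± 0.135 in tumour-free tissue. In controls 5 of 9 were higher at 9 months and none lower, Thrsp by 2.30 ± 0.412 and Me1 by 1.29 ± 0.137, so that these genes and Elovl5, Elovl6, Fads2 and Scd1 were higher in the same libraries.

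Regulators of lipogenesis went both ways, and more fell than rose. Of 16 tested, 4 rose and 6 fell at 2 months, 3 rose and 4 fell in tumour-free tissue, and 1 rose and 5 fell in tumours. Of all genes 22.3%, 18.1% and 13.8% rose and 20.4%, 16.8% and 11.3% fell. The shares of the list that rose at 2 months and in tumour-free tissue are near those of all genes. Insig2, which holds sterol-sensing factors in the endoplasmic reticulum, changed by -1.55 ± 0.16, -2.03 ± 0.297 and -1.45 ± 0.282, and Nr1h3, the liver X receptor alpha, by -0.66 ± 0.0956, -0.71 ± 0.124 and -1.07 ± 0.182. Mlx, a partner of the sugar-sensing factor of lipogenesis, rose at 2 months (0.60 ± 0.0857). Pparg, a lipid-sensing nuclear receptor, fell at 2 months (-1.76 ± 0.275) and in tumour-free tissue (-2.53 ± 0.214).

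Users of the chains also split. Of 9 tested acyl-CoA synthetases, 2 rose and 2 fell at 2 months and in tumour-free tissue, and 1 rose and 3 fell in tumours. Acsl4, which favours arachidonate, rose by 1.74 ± 0.122, 1.94 ± 0.184 and 1.52 ± 0.224, whereas Acsl1, the main form of liver, changed by -1.75 ± 0.158, -2.23 ± 0.278 and -2.83 ± 0.301. Slc27a2, a synthetase of very long chains, fell at 2 months (-1.37 ± 0.148) and in tumour-free tissue (-2.00 ± 0.286). Of 12 tested genes that load chains on phospholipids, 3 rose and 2 fell at 2 months, 3 rose and 4 fell in tumour-free tissue, and 3 rose and 3 fell in tumours. Lclat1 had the smallest adjusted p at 2 months (-0.50 ± 0.0857, adjusted p = 7.92e-04) and in tumour-free tissue (-1.25 ± 0.223, adjusted p = 0.00343), and Mboat7 also fell at 2 months (-0.37 ± 0.0887) and Agpat2 in tumour-free tissue (-0.83 ± 0.192). Lpcat2 rose in each (0.98 ± 0.296, 1.12 ± 0.248 and 1.72 ± 0.325). In tumours Lpcat1 rose (1.10 ± 0.229) and Lpcat3, which loads arachidonate, fell (-0.97 ± 0.193). Of 4 tested ceramide synthases, which use very long chains, 2 rose at 2 months, none in tumour-free tissue and 1 in tumours. Cers2 rose by 0.55 ± 0.12 and Cers5 by 0.63 ± 0.186 at 2 months.

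The genes most like the members in pattern were sought for the 4 with the widest range of group means, among 9933 protein coding genes over 18 samples, by the root mean square difference of centred log2 CPM. For Elovl3 they were Sult2a8 (1.01) and Fabp1 (1.41), for Scd2 Src (0.40) and Casp12 (0.48), for Elovl5 Pemt (0.46) and Nat8f2 (0.50), and for Fads1 Tnfrsf19 (0.36) and Enpep (0.45). The distance is in log2 units, and a smaller value is a closer match. Elovl3 had no match as close as the others, and its group means ranged over 9.18 log2 units, against 4.42 for Scd2, 3.45 for Elovl5 and 2.92 for Fads1.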

How the data were processed

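The deposited table holds raw read counts per gene for 19 poly(A) libraries, made with a stranded kit per the labels. The submitters' processing notes name STAR 2.6.1a, RSEM, bedtools 2.27.1, DESeq2 1.22.2 and build GRCm38/mm10; the labels used here do not give the role of each tool, the annotation or the strand setting. Of 55421 genes, 24684 had no count, and 54587 identifiers matched GENCODE release M21 with the same version, which gave positions and exon lengths. The tumours of mutant 1 were summed, leaving 18 samples. Every fit took the groups of its comparison and the whole table, with edgeR 4.0.16 (filterByExpr, TMM, robust quasi-likelihood F test, R 4.3.3), and p-values were adjusted by Benjamini and Hochberg over all genes tested. Every adjusted p in the text is edgeR's unless DESeq2 is named. Standard errors were derived from the F statistic, as the size of the log2 change over the square root of F. Levels are CPM with TMM factors over all libraries. The script was tested on simulated counts.

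The members and lists were chosen with earlier results of these data known. All 9 members are given, and list genes were taken from the 3 with the smallest adjusted p in each list and comparison; not every one of these is printed. A gene of the peroxisomal list is not reported here and was left out of its counts. Alternatives were DESeq2 1.42.0, scaling by RLE or by library size alone, keeping all genes (no expression filter), a joint fit of the 5 groups, a replicate block, separate tumours, omission of the 9-month libraries numbered 1, and omission of each sample. Tumour and tumour-free samples with one number come from the same animal per the labels; their deviations correlated across genes at 0.225, 0.307 and 0.033, against -0.246 to 0.041 for other pairs. Mice of different groups share only a number in the labels.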

Additional observations from a re-analysis of the deposited data

Results flagged for a closer look

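The interaction test between 2 and 9 months flagged 4 genes, with difference of log2 changes as the quantity. In tumour-free tissue it was -1.83 for Elovl5, -2.06 for Fads1 and -1.89 for Fads2. In tumours it was -3.11 for Elovl5, -2.27 for Fads1, -2.23 for Fads2 and -2.52 for Scd1. Scd1 was flagged in tumours alone, and in that set time and tumour tissue cannot be told apart. Both sets use the same 2-month libraries and the same 9-month controls. Only the 2-month controls were numerous enough for a check of single outlying samples. There, no control stood apart in any of the 9 members; groups of 3 were not checked.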

How the results depend on the processing

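The 7 members called in tumour-free tissue kept their calls in all 13 alternatives, as did Elovl3, Elovl5, Fads2 and Scd2 in all 14 for tumours against controls. The members called at 2 months numbered 4, and 2 with no expression filter, 1 fit over all 5 groups or the replicate block, and 2 to 6 without single samples. Between tumours and tumour-free tissue 0 were called, and 1 by DESeq2 or the 5-group fit. Between control ages 4 were called, and 2 in the 5-group fit. For the change with time in tumour-free tissue 3 were called, 1 in the 5-group fit, 0 with the replicate block and 1 to 3 without single samples; for tumours 4 were called, 2 with no filter, 0 with the replicate block and 1 to 5 without single samples. With that block the adjusted p of these calls was 0.0915 to 0.349. The labels give mice of different groups no pairing beyond the shared number. Deviations of mice with the same number, 1 to 3, correlated at -0.109, 0.239 and -0.222 between the 2-month groups. At 9 months they correlated at 0.309, 0.008 and -0.02 between controls and tumour-free tissue, and at 0.113, -0.025 and -0.032 between controls and tumours. Blocking by animal changed no call of a member between tumours and tumour-free tissue.

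Leaving out 1 sample at a time turned signs, none of them of a called value. At 2 months Fads2 ranged from -0.71 (without mutant 2) to 0.02 (without mutant 3), and it was at 0.03 with library size alone. In tumours against controls Elovl1 ranged from -0.08 (without tumour 3) to 0.45. Between tumours and tumour-free tissue the ranges were -0.28 to 0.26 for Elovl1, -1.08 to 0.01 for Elovl2, -1.11 to 0.75 for Elovl6, -0.70 to 0.19 for Fads1 and -0.24 to 0.85 for Scd2, with one end set by the omission of tumour 2 or 3 in each. There Elovl1 was at -0.02 and Elovl6 at -0.48 with the block, and Fads1 at 0.10 without the libraries numbered 1. Between control ages Elovl2 ranged from -0.14 to 0.04 and Scd2 from 0.00 to 0.21, the ends set by 9-month controls 1 and 2. For the change with time Elovl1 ranged from -0.08 to 0.13 in tumour-free tissue; in tumours Elovl1 ranged from -0.23 to 0.33, Elovl3 from -1.06 to 1.46 and Scd2 from -0.66 to 0.42. There Scd2 was at -0.07 with the block and -0.16 with separate tumours, and Elovl3 was at -1.13 without the libraries numbered 1.

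Over all genes, 5883 calls at 2 months became 3290 with the block. For tumours against controls 3593 became 5482 by library size, 6612 in the 5-group fit, 1743 without the libraries numbered 1 and 1419 to 2188 without single controls. Between tumours and tumour-free tissue 2 became 442 by DESeq2, 47 with no filter, 380 in the 5-group fit, 1 with the block, 0 without the libraries numbered 1 and 0 to 63 without single samples. Between control ages 1616 became 1056 in the 5-group fit, 384 with the block and 797 and 925 without 9-month controls 2 and 3. For the change in tumour-free tissue 223 became 534 by DESeq2, 54 in the 5-group fit and with the block, and as few as 110 without single samples. For tumours 385 became 866 by DESeq2, 4 with the block, 659 without the libraries numbered 1 and 131 to 819 without single samples. The cause was not tested. Elovl3 rests on 20, 15 and 20 counts over the 3 mutant groups, which limits its fold change and not its direction.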
